A study of Homo sapiens with 14 samples.

Results

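The windows described here are the 300 stretches of 100 kb, of 28760 on the autosomes of hg38, in which chromatin regions bound by the BAF remodelling complex in primed but not in naïve human embryonic stem cells most outnumbered those bound in naïve but not in primed cells. BAF regions were built for each state by merging the peaks of BRG1 and BAF155, and a region without a partner in the other state (25% of either region covered) is called naïve-only or primed-only. The remaining primed regions are called common. Each region was assigned to the window that holds its midpoint, and windows were ranked by the number of primed-only minus the number of naïve-only regions. The windows were thus chosen by the BRG1 and BAF155 lists of both states, and all values from these lists are given as a description only. The SOX2 and BRM lists, the gene annotation and the genome sequence were not used in the choice.

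The series holds 14 ChIP-seq samples of WIBR3, a human embryonic stem cell line, of which 4 are inputs and 10 came with a peak list. Naïve cells were grown in 5i/L/A medium and primed cells in conventional medium, both on mouse feeder cells. In each state BRG1, BAF155 and BRM had 1 library each. SOX2 had 2 libraries per state, but both lists gave the same coordinates, so they count as 1 sample. All samples come from 1 cell line and no group has a measurable replicate spread, so no difference below has a replicate check and no test between states was made. Intervals are exact 95% intervals and cover counting error within these libraries only. They treat regions and peaks as independent, although many lie close together, so they can be too narrow. Whether 2 of them overlap is a description and not a test. Read depth was not used here. The naïve BAF lists were the longer ones, with 75081 naïve against 56231 primed BAF regions on the autosomes, and primed BRG1 was the shorter of the primed lists, with 15047 peaks against 56077 for BAF155. The primed SOX2 list held 8747 peaks and the naïve list 1843. Where no peak was called, binding below the caller's threshold is possible.

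BAF, the mammalian SWI/SNF complex, uses the energy of ATP to move or evict nucleosomes and so opens enhancers and promoters to transcription factors. BRG1 (encoded by SMARCA4) and BRM (SMARCA2) are its alternative ATPases, and BAF155 (SMARCC1) is a subunit of its structural core. SOX2 binds DNA with OCT4 in pluripotent cells and is also a main regulator of the early neural lineage. Primed cells are held to resemble the epiblast after implantation, from which ectoderm, mesoderm and endoderm arise, whereas naïve cells resemble the epiblast of the blastocyst.

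To show the kind of site in question, the reference sequence (hg38, plus strand) at the centre of the SOX2 peaks of highest fold enrichment in primed-only regions of these windows is given, with 1 site per window. Capitals mark matches on either strand to the SOX core (CATTGT or CTTTGT) and to the ZIC consensus (CCTGCTG). The first site, chr1:16116007-16116207, is intergenic and lies 17.5 kb from the nearest protein-coding transcription start site (TSS), that of EPHA2, a receptor for ephrin-A ligands, in a window with the lowest difference admitted. The next 4 are intronic, at chr14:68261212-68261412 in RAD51B, chr9:37251486-37251686 in ZCCHC7, chr1:44543250-44543450 in RNF220 and chr4:182560475-182560675 in TENM3.
EPHA2 site: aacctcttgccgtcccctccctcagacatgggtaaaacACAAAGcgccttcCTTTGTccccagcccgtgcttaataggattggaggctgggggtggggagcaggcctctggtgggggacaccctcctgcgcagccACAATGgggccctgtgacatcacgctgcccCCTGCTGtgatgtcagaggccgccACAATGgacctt
RAD51B site: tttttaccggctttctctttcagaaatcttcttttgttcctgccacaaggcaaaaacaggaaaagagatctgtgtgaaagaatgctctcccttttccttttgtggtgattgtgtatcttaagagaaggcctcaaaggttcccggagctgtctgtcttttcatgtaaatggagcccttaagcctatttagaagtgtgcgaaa
ZCCHC7 site: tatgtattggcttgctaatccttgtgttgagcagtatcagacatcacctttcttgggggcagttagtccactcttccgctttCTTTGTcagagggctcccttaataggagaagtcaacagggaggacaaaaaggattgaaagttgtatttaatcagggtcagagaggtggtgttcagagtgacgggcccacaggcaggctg
RNF220 site: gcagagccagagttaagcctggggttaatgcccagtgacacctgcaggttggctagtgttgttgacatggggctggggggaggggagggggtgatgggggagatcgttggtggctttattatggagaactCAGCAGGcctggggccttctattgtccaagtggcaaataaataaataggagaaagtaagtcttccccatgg
TENM3 site: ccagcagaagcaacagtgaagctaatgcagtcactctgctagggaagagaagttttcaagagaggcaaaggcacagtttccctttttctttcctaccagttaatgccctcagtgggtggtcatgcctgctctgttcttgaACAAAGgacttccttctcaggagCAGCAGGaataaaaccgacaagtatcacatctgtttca
The SOX2 folds over input at these sites were 36.8, 24.0, 23.4, 21.8 and 20.6, and each of the 5 regions also held a primed BRG1 peak. The EPHA2 site holds 4 matches to the SOX core and 1 to the ZIC consensus. The ZCCHC7 site has 1 SOX core and the TENM3 site 1 of each, while the RNF220 site has a ZIC match only and the RAD51B site has neither. Strong SOX2 peaks were thus found with and without these letters in the stretch shown.

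Among the 300 windows the difference between primed-only and naïve-only regions ran from 12 down to 4. A single window had 12, 2 had 11, 4 had 10, 3 had 9, 10 had 8, 21 had 7, 76 had 6 and 161 had 5. The last 22 places went to windows with a difference of 4, of which the genome has 414, and because ties were settled by chromosome number all 22 lie on chromosome 1. The last window inside, chr1:204900001-205000000, had 5 primed-only and 1 naïve-only region, and the first outside, chr1:205900001-206000000, had 4 and 0. Values are therefore also given for the 278 windows with a difference of at least 5 where they differ. Together the 300 windows held 1819 primed-only regions (lowest 4, median 6, highest 12 per window), 142 naïve-only regions and 337 common regions. No naïve-only region lay in 200 of them, as the rule favours. At least 1 lay in 33.3% of the 300 and in 54.9% of all windows. Over all windows the means were 1.01 primed-only, 1.64 naïve-only and 0.95 common regions.

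The choice of windows rested mostly on BAF155. Every one of the 300 had more primed than naïve BAF155 peaks (2152 against 415 in all), compared with 33.5% of all windows. BRG1 peaks were more numerous in primed cells in 136 of the 300, equal in 94 and more numerous in naïve cells in 70, where 5.29% of all windows had more primed than naïve BRG1 peaks. The BRG1 totals were 491 primed and 387 naïve peaks. When BRG1 peaks alone were used to rank the windows, 66 of the 300 were covered over at least 50% of their length by the new set.

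Of the 10 leading windows, most overlap 1 or more protein-coding genes and 1 overlaps none. In rank order, the first, chr3:190000001-190100000, lies inside P3H2, a collagen prolyl hydroxylase, and had 12 primed-only regions, all intronic, and no naïve-only region. The second, chr5:107500001-107600000, lies inside EFNA5, which encodes the axon guidance ligand ephrin-A5, and had 12 primed-only regions, all intronic, against 1 naïve-only region. The third, chr14:99500001-99600000, covers most of CCDC85C, with 12 primed-only regions and 1 naïve-only. Windows in MCC, in CADPS2 and at MBIP followed with 10 primed-only regions each and no naïve-only region. The last of these only touches the end of MBIP. Its primed-only regions all lay outside that gene, 6 of them in intergenic sequence. The seventh, chr22:27400001-27500000, overlaps no protein-coding gene and lies 292 kb from the nearest protein-coding TSS, that of MN1, a transcriptional regulator. The next 3 were in NAV1, which encodes neuron navigator 1, at GATA3, a trophoblast and T cell transcription factor, and in CLYBL, with 10, 11 and 11 primed-only regions. In these 10 windows the median BAF155 fold of the primed-only regions lay between 2.95 and 3.43, near the median of 3.16 over primed-only regions elsewhere, so the windows lead by number of regions and not by a high fold.

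**Figure D1:**
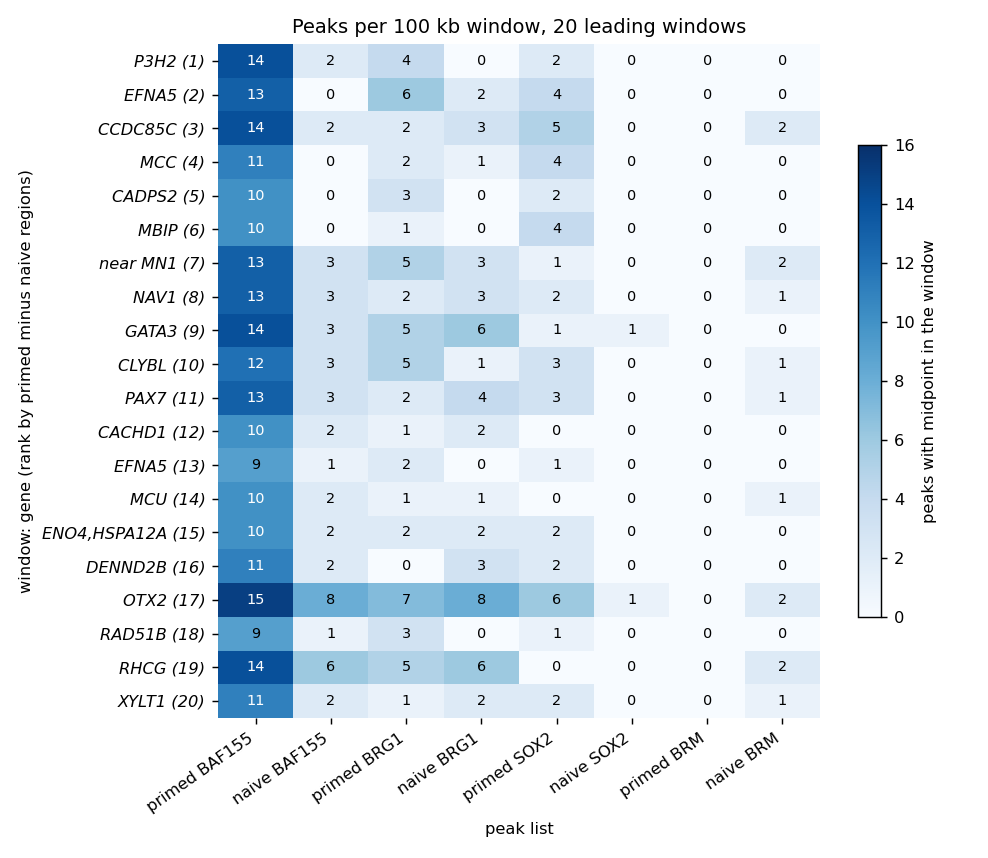
Number of peaks with their midpoint in each of the 20 windows with the highest difference (rows, named by a gene with a TSS there, otherwise by the overlapping or nearest gene, with the rank in brackets) in each peak list (columns); darker cells hold more peaks. Primed BAF155 ran from 9 to 15 peaks, naïve BAF155 from 0 to 8, and 17 of the 20 windows had a primed SOX2 peak whereas 2 had a naïve one.

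Primed SOX2 was frequent in these windows, and naïve SOX2 was not. A primed SOX2 peak lay in 224 of the 300 windows (74.7%, interval 69.3 to 79.5%), against 23.1% of all windows. The windows held 380 primed SOX2 peaks, from 0 to 6 with a median of 1, or 1.27 per window (interval 1.14 to 1.40), compared with 0.304 per window over the autosomes and 0.567 in the 300 windows densest in naïve-only regions, which were taken from the other end of the same ranking. In the 278 windows with a difference of at least 5 the mean was 1.30. At least 3 primed SOX2 peaks were present in 39 of the 300 (13%) and in 1.36% of all windows. A naïve SOX2 peak lay in 17 of the 300, against 5.78% of all windows, and no window had more than 1. Of the SOX2 peaks of both lists in these windows, 95.7% were primed (interval 93.2 to 97.5%), where the list lengths alone gave 82.6% over the autosomes.

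The number of primed-only regions, which the rule set high, goes with this. Of the 380 primed SOX2 peaks 280 lay in such regions, so a high number is partly set by the rule. How large that part is was not tested. Among windows that were not chosen, 367 had at least 5 primed-only regions together with at least 1 naïve-only region, a set made after the values were seen. They had fewer primed-only regions than the 300, 5.36 against 6.06 per window. They held 1.07 primed SOX2 peaks per window (interval 0.97 to 1.18), with a peak in 64.0% (interval 58.9 to 68.9%), between all windows and the 300. Their naïve SOX2 mean was 0.134 per window, against 0.0567 in the 300.

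**Figure D2:**
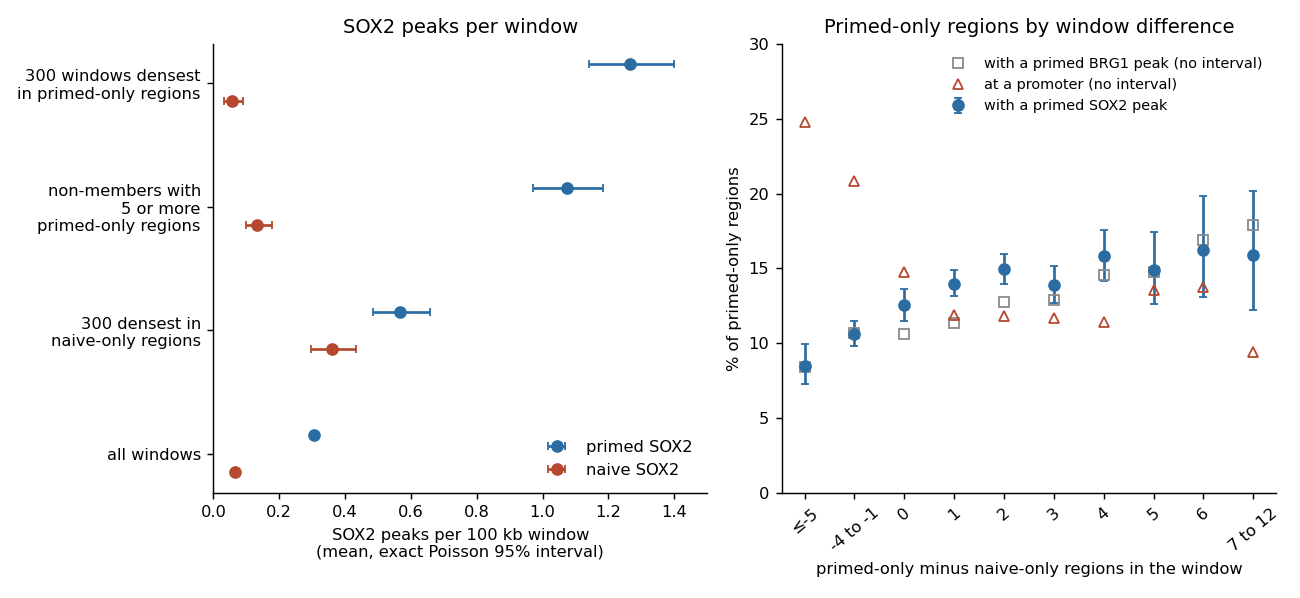
Left, mean number of SOX2 peaks per 100 kb window with exact Poisson 95% intervals in 4 sets of windows, primed in blue and naïve in red; right, share of primed-only regions with a primed SOX2 peak (exact 95% intervals), with a primed BRG1 peak and at a promoter, by the difference of the window they lie in. The 300 windows lie highest for primed SOX2 (1.27) and the share of regions with SOX2 is lowest, 8.50%, in windows with a difference of -5 or lower, and lies between 13.9% and 16.3% in all classes from 1 upwards.

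Naïve BRM peaks averaged 0.363 per window (interval 0.298 to 0.438), below the 0.594 of all windows. With BAF peaks of −log10 q of at least 3 the direction turned, to 0.75 per window (interval 0.655 to 0.855). A naïve BRM peak lay in 82 of the 300 windows (27.3%, interval 22.4 to 32.8%), against 30.5% of all windows and 98.3% of the 300 windows densest in naïve-only regions. Of the 109 naïve BRM peaks in the windows, 83 lay in common regions, 15 in naïve-only regions, 6 in primed-only regions and 5 in none. Since naïve BRM peaks mostly lie in naïve BAF regions, a low number is partly set by the rule. The primed BRM list, of 159 autosomal regions, had 1 in these windows.

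Region by region, the primed-only regions of the 300 windows were much like those elsewhere. A primed SOX2 peak was found at 279 of 1819 (15.3%, interval 13.7 to 17.1%) and at 13.0% of the 27101 others (interval 12.6 to 13.4%). The interval of the windows' regions lay above that of the others, but with peaks of −log10 q of at least 3 in the BAF lists SOX2 was present at 25.1% of the windows' regions (interval 22.8 to 27.6%) and at 23.9% of the others (interval 23.3 to 24.6%), and these intervals overlap. The regions here were also wider, with a median of 435 bp against 369 bp, and wider regions held SOX2 more often. Within regions of under 300 bp the share was 3.33% here and 5.02% elsewhere, from 300 to under 600 bp 15.1% and 13.5%, and at 600 bp and over 26.6% and 24.0%, and in each class of width the interval for the windows' regions reached the value elsewhere. A primed BRG1 peak, which took part in the choice, was present at 15.7% of the regions here and at 11.6% elsewhere.

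Primed BRG1 peaks were more frequent at primed-only regions with a SOX2 peak than at those without, although most regions with SOX2 had none. Of the 279 regions with SOX2, 131 also had a BRG1 peak (47.0%, interval 41.0 to 53.0%), and of the 1540 without SOX2, 155 had one (10.1%, interval 8.61 to 11.7%). Elsewhere the shares were 40.9% and 7.16%. Regions with SOX2 had a median BAF155 fold of 4.08 and a width of 754 bp, and those without 3.09 and 388 bp, so peak strength and width moved with SOX2; their part in the BRG1 shares was not tested. BRG1 peaks also took part in the choice of the windows. Of the 300 windows, 107 had no primed-only region with SOX2 and 113 none with BRG1. The same counts over all windows are not given, so whether these are high or low is not shown.

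The 380 primed SOX2 peaks were placed mostly on state-specific regions. In primed-only regions lay 280 (73.7%, interval 69.0 to 78.0%), in common regions 85 and outside BAF regions 15, whereas elsewhere 42.9% lay in primed-only and 45.6% in common regions. This split follows in part from the number of primed-only regions in the windows. The common regions, whose number the rule did not set, held SOX2 more often than elsewhere, at 80 of 337 (23.7%, interval 19.3 to 28.6%) against 13.3% (interval 12.9 to 13.7%). They were less often promoters, at 38.6% against 52.6%. Away from promoters SOX2 was present at 28.5% here (interval 22.5 to 35.2%) and 20.6% elsewhere (interval 19.9 to 21.3%), and at promoters at 16.2% (interval 10.3 to 23.6%) and 6.68% (interval 6.27 to 7.10%), and the intervals lay apart in both positions. By width, at 600 bp and over the shares were 28.8% (interval 22.8 to 35.4%) and 16.5%. In common regions of under 300 bp the values were 10.9% (interval 3.62 to 23.6%) and 4.602%, and from 300 to under 600 bp 17.7% (interval 10.04 to 27.9%) and 11.1%, and in both narrower classes the interval here reached the value elsewhere. Common regions with a naïve BRM peak made up 23.7% here and 30.4% elsewhere.

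Introns held more of the primed-only regions than elsewhere and promoters fewer. A midpoint in an intron was found for 63.0% of the regions (interval 60.7 to 65.2%) against 52.6%, in intergenic sequence for 20.5% against 28.5%, and within 1 kb of a TSS for 12.6% (interval 11.2 to 14.3%) against 14.9% (interval 14.5 to 15.3%). With BAF peaks of −log10 q of at least 3 the promoter shares were 26.4% here (interval 24.1 to 28.9%) and 30.5% elsewhere (interval 29.8 to 31.2%). The median distance to a TSS was 10.0 kb here and 9.78 kb elsewhere. Neighbouring primed-only regions were 5.51 kb apart at the median, against 22.9 kb elsewhere, as the choice of dense windows entails.

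**Figure D3:**
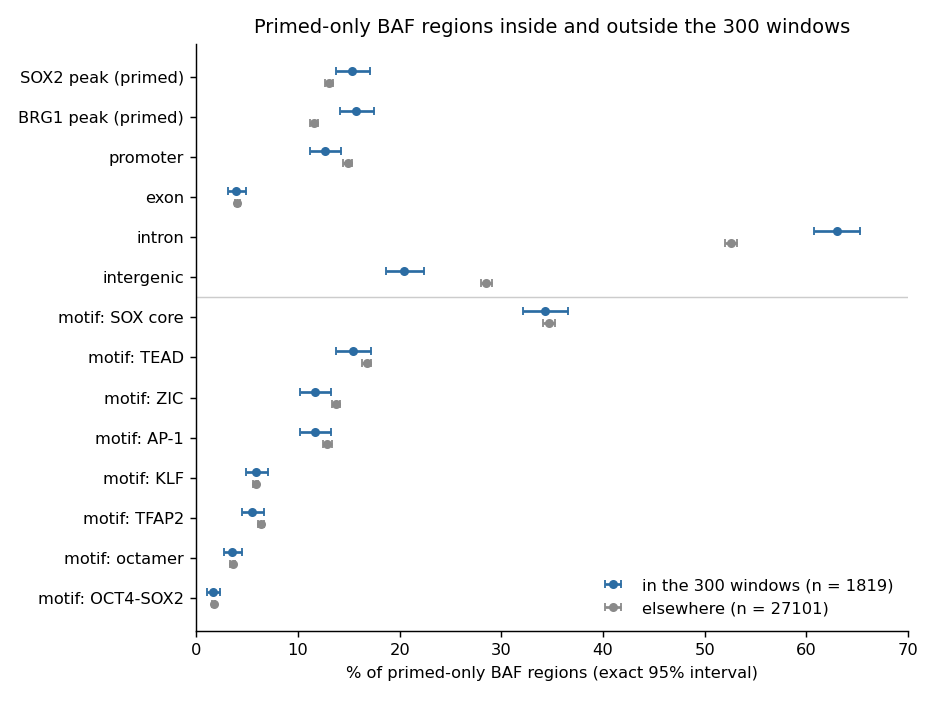
Share of primed-only BAF regions with each feature, for the 1819 regions in the 300 windows (blue) and the 27101 elsewhere (grey; 27100 for motifs), with exact 95% intervals. The intron share differs most, 63.0 against 52.6%, and the motif shares lie close together, with ZIC lower in the windows (11.7 against 13.7%).

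The sequence motifs differed little as well. The ZIC consensus was slightly less frequent here, with intervals that only just lay apart. Several motifs were searched with no allowance for their number, and ZIC was not counted in other settings. In the central 200 bp the SOX core (CATTGT or CTTTGT) was present in 34.3% of the regions here (interval 32.1 to 36.5%) and 34.7% elsewhere, with 25.01% in windows of the same length 2 kb away and 22.2% in naïve-only regions outside the 300 windows. The ZIC consensus (CCTGCTG) was present in 11.7% (interval 10.2 to 13.2%) against 13.7% (interval 13.3 to 14.1%) elsewhere and 4.65% at 2 kb, the joint OCT4-SOX2 letters (TTGTNATGC) in 1.59% against 1.68% and 0.632%, and the octamer (ATGCAAAT) in 3.52% against 3.57% and 1.92%. The KLF consensus (GGGNGNGGC) was present in 5.88% here, 5.82% elsewhere and 11.98% of naïve-only regions outside the windows. For the TFAP2 consensus (GCCNNNGGC) the shares were 5.50%, 6.32% and 10.7%. Common regions held both more often, KLF at 16.6% here and 22.3% elsewhere and TFAP2 at 18.1% and 20.2%. The median GC content was 45% in primed-only regions here, 49.5% in naïve-only and 60.5% in common regions elsewhere. Its part in these shares was not tested. The TEAD (GGAATG) and AP-1 (TGANTCA) letters were present in 15.4% and 11.7% here and in 16.7% and 12.9% elsewhere. Both strands were searched, and the SOX core and the OCT4-SOX2 letters can overlap. Within the windows, 49.5% of the regions with a SOX2 peak (interval 43.4 to 55.5%) and 31.6% of those without (interval 29.2 to 33.9%) held a SOX core.

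The windows differed from the genome in their gene content. In 106 of the 300 (35.3%, interval 29.9 to 41.0%) there was no protein-coding TSS, against 48.8% of all windows and 8.33% of the windows densest in naïve-only regions. A gene of over 300 kb overlapped 28.3% of the 300, 17.8% of all and 4.33% of the naïve-densest windows. The median GC content was 41.0%, near the 39.8% of all windows and below the 48.4% of the naïve-densest ones. All windows include some without sequence, as 27679 of the 28760 held any. The 367 windows not chosen with at least 5 primed-only regions lacked a protein-coding TSS less often, in 25.9% (interval 21.5 to 30.7%). A gene of over 300 kb overlapped 22.3% of them, and their median GC content was 44.2%. No protein-coding gene body reached into 67 of the 300 (22.3%, interval 17.7 to 27.5%), less often than in all windows (38.1%). The share was 6% in the naïve-densest windows and 13.1% in the 367. Among the 67 were the MN1 window and a pair on chr5:124900001-125100000.

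Genes of the primed state and of the early neural lineage were among those with a TSS in these windows. As background, 253 of 19111 protein-coding genes (1.32%) had one. Of the 24 autosomal markers of the primed state 5 did (ZIC2, ROR1, OTX2, CDH2 and LEF1), of the 49 neuroectoderm regulators 7 (PAX3, PAX7, ZIC2, ZIC5, OTX2, EN1 and ZEB2), and of the 69 genes of neuronal adhesion and axon guidance 7 (SLIT2, SEMA3A, SEMA3C, EFNA5, CDH2, PCDH18 and PTPRD). Of the 19 markers of the naïve state 0 did, while 7 had a TSS in the naïve-densest windows, where 3.93% of all protein-coding genes have one (TFAP2C, DPPA3, DPPA5, DPPA2, KHDC3L, TRIM60 and ZNF729). The lists share genes, large genes reach more windows, and lists were drawn up with earlier results of these data known, so the counts are a description. They also depend on the ranking, as the neuroectoderm count was 2 with BRG1 peaks alone and 13 with equal list lengths, and the primed marker count was 2 with the grid moved by 50 kb and 3 with BRG1 peaks alone. None of the listed genes had its TSS in one of the 22 windows with a difference of 4.

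Regulators of other lineages had a TSS in these windows as well. Differences between lists were not tested. The 2 of 16 endoderm regulators were FOXA1 and FOXA2, pioneer factors of the foregut. The 2 of 28 mesoderm regulators were BMP4 and EVX1, and the 1 of 15 trophoblast regulators was GATA3. Among signalling genes, 2 of 42 WNT ligands and receptors (FZD7 and ROR1), 2 of 37 of the TGF-beta family (BMP4 and BMP7) and 0 of 23 FGF genes were found. The core pluripotency factors had 1 of 16, OTX2, which is also counted among the primed markers. In the naïve-densest windows 5 of these 16 had a TSS (NANOG, DPPA4, DPPA2, UTF1 and ZFP42), where 3.93% of all protein-coding genes have one. The BAF subunits (0 of 28), fibroblast markers (0 of 16) and housekeeping genes (0 of 13) had none, and 4 of the housekeeping genes lay in the naïve-densest windows, set against the same 3.93%.

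**Figure D4:**
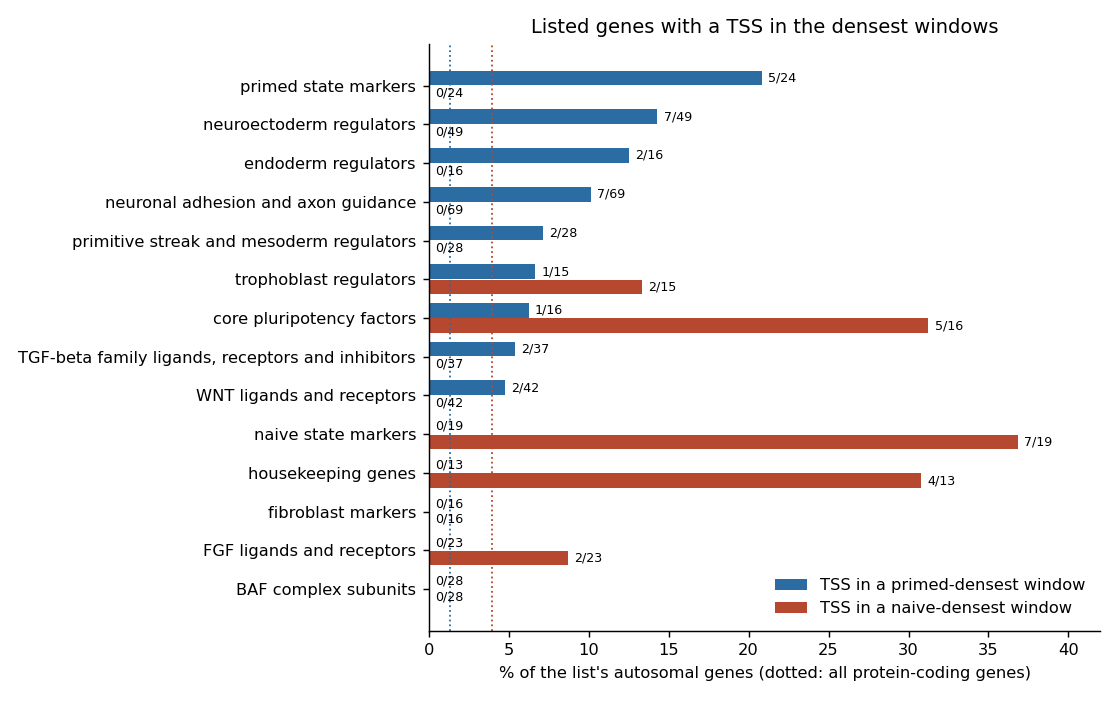
Share of the autosomal genes of each list with a TSS in the 300 windows densest in primed-only regions (blue) and in the 300 densest in naïve-only regions (red), with counts beside the bars and the shares over all protein-coding genes as dotted lines. Primed state markers reach 5 of 24 and neuroectoderm regulators 7 of 49 in the first set, and naïve state markers 0 of 19 against 7 of 19 in the second.

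The window of OTX2, a homeobox factor of the postimplantation epiblast and forebrain, had the most SOX2 peaks of the 300. At chr14:56800001-56900000 there were 9 primed-only, 1 naïve-only and 7 common regions, with 15 BAF155 peaks in primed and 8 in naïve cells and 7 and 8 BRG1 peaks. Of its 6 primed SOX2 peaks 5 lay in common regions, and that of highest fold (24.2) was at chr14:56805736-56806298 within OTX2. The other peak in the gene, at chr14:56813228-56813499 with a fold of 5.79, was in a primed-only region. This window also had a naïve SOX2 peak and 2 naïve BRM peaks.

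PAX3 and PAX7 encode paired-box factors of the dorsal neural tube and neural crest. PAX7 (chr1:18630846-18748866) spans a window with 11 primed-only and 3 naïve-only regions, where 2 of its 3 primed SOX2 peaks were in primed-only regions, and a second with 5 and 1 that was admitted at a difference of 4. The PAX3 window chr2:222200001-222300000 had 6 primed-only and no naïve-only region, and the window after it was also chosen. It held 4 primed SOX2 peaks, all within the gene, with folds of 5.60 to 9.75, and 3 of them were in primed-only regions. BRG1 gave 2 peaks in primed and 4 in naïve cells in the first PAX7 window and 2 and 1 in the PAX3 window, against 13 and 3 and 7 and 0 for BAF155.

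ZIC2 and ZIC5, zinc-finger factors of neural development, share the last of 3 adjacent windows on chr13:99700001-100000000, whose first ones lie in CLYBL. The 3 windows held 27 primed-only and 7 naïve-only regions and 6 primed SOX2 peaks. In the window with the ZIC genes 9 regions were primed-only and 3 naïve-only, and primed SOX2 peaks lay at chr13:99974374-99975080 (fold 6.94) between the genes and at chr13:99983811-99984176 (fold 6.73) within ZIC2. The only other run of 3 windows, chr11:44700001-45000000, covers TSPAN18 and TP53I11 and held 19 primed-only regions, 3 naïve-only regions and 6 primed SOX2 peaks. ZEB2, a zinc-finger repressor of neural crest cells, had 6 primed-only regions and 1 naïve-only. All 3 primed SOX2 peaks of its window were within the gene and in primed-only regions, with folds of 6.15, 8.88 and 15.4. EN1, a homeobox factor of the midbrain and hindbrain, had 6 and 1 regions and 1 primed SOX2 peak, in a common region.

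Windows with genes of WNT and BMP signalling varied. At ROR1, which encodes a receptor of the WNT pathway, 7 primed-only and no naïve-only region were found, with 6 BRG1 peaks in primed and 1 in naïve cells and SOX2 folds of 5.24 to 9.33 over 3 peaks. The window of FZD7, a frizzled receptor for WNT ligands, had 6 primed-only regions and 1 naïve-only, with 2 BRG1 peaks in primed and 3 in naïve cells. Of its 3 primed SOX2 peaks 2 lay in common regions, and 1 naïve SOX2 and 2 naïve BRM peaks were also called there. The window that holds the 5' part of LEF1, a transcription factor of the same pathway, had 7 primed-only and no naïve-only regions, with 6 BRG1 peaks in primed and 2 in naïve cells. A SOX2 peak of fold 8.20 lay within LEF1 and another of fold 11.2 lay upstream of it, both in primed-only regions. The BMP4 window, around a growth factor of mesoderm and ectoderm patterning, had 6 primed-only regions, 5 of them intergenic, with 5 BRG1 peaks in primed and 4 in naïve cells, and a SOX2 peak at chr14:53982553-53982880 with a fold of 14.2. In the BMP7 window 3 primed SOX2 peaks lay in primed-only regions, the highest at chr20:57232078-57232543 within the gene with a fold of 12.9.

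Among genes of cell contact, CDH2, the N-cadherin of neural and mesodermal cells, spans adjacent windows with 7 and 6 primed-only regions, 0 and 1 naïve-only regions and 1 primed SOX2 peak in each. EFNA5 also spans a pair, with 21 primed-only and 2 naïve-only regions and 5 primed SOX2 peaks. Its folds ran from 3.49 to 9.23. SLIT2 and the SLIT3 gene body, which encode ligands of ROBO receptors, had 5 and 7 primed-only regions and 1 primed SOX2 peak each. SEMA3A and SEMA3C, secreted semaphorins, had 6 each, with no SOX2 peak and 1 of fold 12.4. TENM3, a teneurin adhesion receptor, had 8 primed-only regions, all intronic.

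The GATA3 window, chr10:8000001-8100000, had 11 primed-only regions, none of them with a SOX2 peak, and 2 naïve-only regions. The 1 primed SOX2 peak, of fold 9.24, lay in a common region within the gene. A naïve SOX2 peak was called in the same window. The FOXA2 window had 3 primed SOX2 peaks, 2 of them in primed-only regions, and the FOXA1 window 1 in a common region, as at EN1.

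Most of the windows had no chosen neighbour, but some lay close together. The 300 make up only 1.04% of all windows. Of the 300, 264 had no chosen neighbour and 36 formed 17 runs of adjacent windows, 15 of 2 and 2 of 3. Another chosen window lay within 1 Mb of 90 of them. How many neighbours a random placement would give was not tested. The windows next to a chosen one, other chosen windows left out, had a mean of 1.72 primed-only regions and a mean difference of 0.38, against 1.01 and −0.63 over all windows. At 200 kb the mean difference was −0.05. Primed SOX2 fell from 1.27 peaks per window to 0.50 at 100 kb and 0.47 at 200 kb, above the 0.304 of all windows, and reached 0.29 at 2000 kb. The rule ranked all windows, so with chosen ones left out the neighbours have a difference of at most 4. The fall in BAF regions is thus partly set by the rule. Its part in the fall of SOX2 was not tested, and regions close together share their surroundings.

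**Figure D5:**
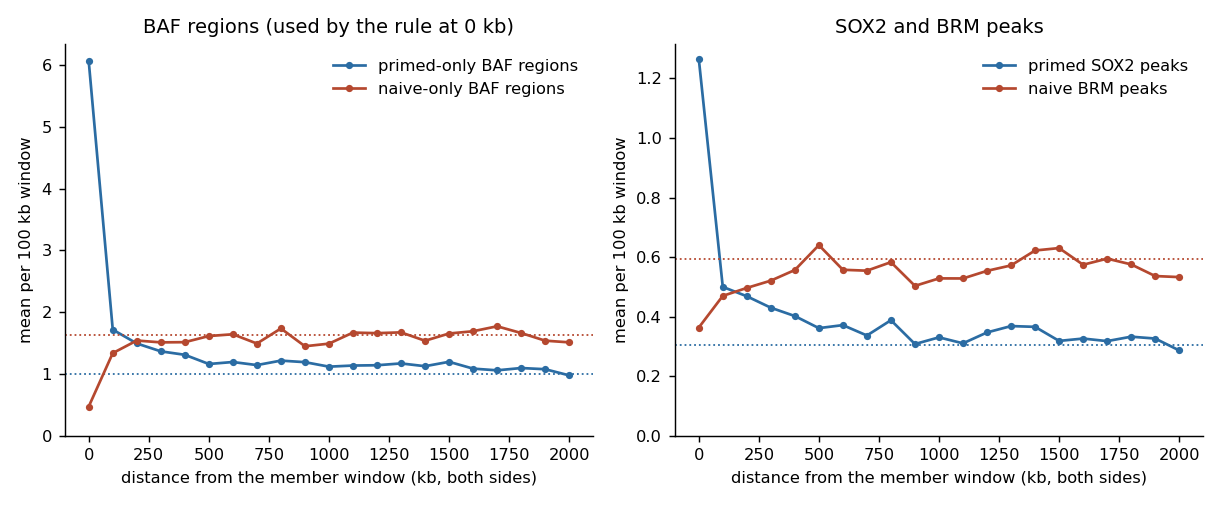
Mean number per 100 kb window of primed-only and naïve-only BAF regions (left) and of primed SOX2 and naïve BRM peaks (right), by distance from the 300 windows on both sides, other chosen windows left out; dotted lines are means of all windows. Primed-only regions drop from 6.06 to 1.72 and primed SOX2 peaks from 1.27 to 0.50 at 100 kb. The drop in BAF regions is partly set by the choice of windows.

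By chromosome, the 278 windows with a difference of at least 5 made up 0.97% of all windows. Chromosome 11 had 26 (1.92% of its windows), chromosome 5 had 28 (1.54%) and chromosome 18 had 11 (1.37%). Chromosome 19 had 1 (0.17%) and chromosome 21 had 1 (0.21%). Chromosome 19 also had the lowest ratio of primed-only to naïve-only regions, 0.12, and the highest median GC content, 48.0%, whereas chromosome 5 had the highest ratio, 0.96, with 38.8% GC. The part of GC content in these counts was not tested.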

How the data were processed

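ChIP-seq of BRG1, BAF155, BRM and SOX2 was carried out in naïve and primed WIBR3 cells with inputs as controls. Per the methods, reads were trimmed, mapped to hg38 with bowtie2 (version 2.3.4 per the labels), freed of duplicates, and peaks were called against input with MACS2, broad for BAF subunits (single-end reads) and narrow for SOX2 (paired-end reads). Reads from mouse feeder cells were not separated by a step described there. The deposited lists give positions, and most also give the authors' score, fold over input (a linear ratio) and −log10 p and q. Every count here depends on the length of the lists, and a deeper library can give a longer list. By the paper's read counts the primed BRG1 library was deeper than the naïve one, and its list was shorter. The part of depth was not tested.

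Overlap, merging and window counts were computed in Python 3.11.15 with numpy 2.4.6, pandas 2.3.3 and pysam 0.24.0, and were tested on simulated data against bedtools 2.31.1. Genes were those of GENCODE release 44, promoters lay within 1 kb of a TSS, and exons, introns and intergenic sequence followed by midpoint. Intervals are Clopper-Pearson for shares and exact Poisson for means per window, at the 95% level. No test was made, as each group is 1 sample. The members and gene lists were chosen with earlier results of these data known. Named windows were the 10 of highest difference, runs of at least 3 and windows with listed genes. Sequences were those of the highest SOX2 folds, 1 per window, outside chromosome 8 and outside untranslated parts of transcripts. A sixth, at a promoter, was left out. Alternatives covered overlap, thresholds, antibodies, list lengths, window grids, the promoter distance and the sequence window.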

Additional observations from a re-analysis of the deposited data

How the results depend on the processing

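Means for windows of other lengths are per 100 kb. When the windows were 150 of 200 kb, 135 of the 300 remained covered over at least 50% of their length, primed SOX2 stood at 1.10 peaks and 26.0% had no protein-coding TSS, and with 600 of 50 kb the last 2 values were 1.51 and 48.8%. A grid moved by 50 kb kept 158, with 1.42 primed SOX2 peaks and 10.5% of primed-only regions at promoters. With BAF peaks of −log10 q of at least 3, 93 were kept, with 1.45 primed SOX2 and 0.75 naïve BRM peaks per window and 23.3% without a TSS, and of the regions 26.4% were promoters, 30.6% held a SOX core, 40.2% a BRG1 peak and 25.1% a SOX2 peak. With BRG1 peaks alone 66 were kept, naïve BRM stood at 0.223 and 42.7% had no TSS, and 18.6% of the regions were promoters, 43.96% held a SOX core and 44.1% a SOX2 peak, the BRG1 share being 100% by construction. BAF155 alone gave 0.49 naïve BRM peaks and 14.5% promoters, and equal list lengths 0.513, 14.4% and 18.0% with BRG1. A partner of 50% of both regions also gave 18.0% with BRG1. All 692 windows with a difference of at least 4, a set added after the data were seen, held 1.09 primed SOX2 peaks. Promoters within 2.5 kb made up 21.9%, and 54.0% of 400 bp windows held a SOX core. The remaining values of these results lay within the main interval or, for windows kept, within 1.5 times of 300, among them those without chromosome 1. The cause of the other shifts was not tested.

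Primed SOX2 stayed between 1.09 and 1.51 peaks per 100 kb in every setting above, against 0.304 over all windows. In each setting the windows were again chosen for many primed-only regions, where most of these SOX2 peaks lay in the main setting. The number of neuroectoderm regulators with a TSS in the windows ranged from 2 with BRG1 peaks alone to 13, of primed markers from 2 with the grid moved by 50 kb to 6, of genes of neuronal adhesion and axon guidance from 6 to 19 over all 692 windows, and of naïve markers from 0 to 1. Peaks without replicates limit each value to these libraries. No paired analysis was possible because no comparison rests on replicated groups.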
